A study of Mus musculus with 6 samples.

Results

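Müller glia are the radial glia of the retina. They span its whole depth, recycle the transmitter that neurons release, buffer potassium and water, and take part in the visual cycle, and under stress they become reactive. The genes described here are 10 genes by which these cells are usually recognised: Glul, Rlbp1, Slc1a3, Aqp4, Kcnj10, Sox9, Sox2, Hes1, Dkk3 and Clu. They were chosen by name, and were 10 of 21911 protein-coding genes in the annotation. Acetylation of histone H3 at lysine 27 (H3K27ac) is a mark of active promoters and enhancers, and was read at these genes from peak lists of whole retina.

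The retinas came from wildtype (WT) mice that were 3 months old at their first pressure elevation. In the 4xIOP group the intraocular pressure (IOP) of the eye had been held at 30 mmHg for 1 h on 4 occasions, and in the control group the eye was the untreated contralateral eye of mice treated in this way. All retinas were taken on day 2 after the last elevation, and there were 3 lists per group, each called from a different sample. The protocol shared by all samples also mentions injections of dasatinib or vehicle, and the labels of these samples name neither. No list comes from sorted cells, so that fewer cells that carry the mark and less of the mark per cell cannot be told apart.

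In 4 of the 6 samples (control replicates 1 and 2, 4xIOP replicates 1 and 2) the deposited list itself carries the name of the other group. In the other 2 samples the name is that of the label. Groups are given here as labelled, and every direction between them rests on the labels. The lists held between 16195 peaks (4xIOP replicate 3) and 36509 peaks (control replicate 3). They state no read totals, but the background recovered from them ranged from 87.4 to 173 fragments per 10000 bp. The lists also differ in fragment length, taken as the shortest peak: it was 220, 230 and 232 bp in control replicate 1 and 4xIOP replicates 1 and 2, and 195, 187 and 190 bp in control replicates 2 and 3 and 4xIOP replicate 3. As a check of the tissue, the promoters of all 4 rod genes examined (Nrl, Gnat1, Pde6b and Sag) were marked in every list. Defining genes of astrocytes, microglia and pigment epithelium, 5 of each, were marked in 0 lists. This does not show that such cells were absent, because 4 of 5 ganglion cell genes and 3 of 5 amacrine genes were also marked in 0 lists.

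A promoter was the stretch of 2.5 kb on either side of any transcription start site (TSS) of a gene, and it was marked if a peak touched it. Of the 10 genes, Glul and Clu were marked in all 6 lists, Hes1 in 4, Slc1a3 and Kcnj10 in 3 each and Dkk3 in 1. Rlbp1, Aqp4, Sox9 and Sox2 were marked in 0 lists. Across all protein-coding genes, 39.5% were marked in all 6 lists and 42.4% in none. An unmarked promoter is one without a called peak, which does not show that the mark is absent: the weakest peak of a list held from 3.55 to 4.48 times the genome mean background of that list.

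The promoters give a first view of how these genes differ. The RefSeq promoter table (GRCm38.p6) held 5 of the 10 genes, and the 250 bases before each RefSeq start are shown because they include the 2 extremes of the readout, a gene marked in every list (Glul) and genes marked in none (Rlbp1 and Sox2), with Slc1a3 and Kcnj10 between them. The RefSeq start is not always the GENCODE TSS used for the peaks: it is the same at Kcnj10, lies 15, 43 and 410 bp before the TSS at Glul, Slc1a3 and Sox2, and lies 21 bp after it at Rlbp1. Capitals mark the letters CCGCCC, known as the GC box and bound by factors of the SP family. They also mark the CCAAT box, spelled by its name. The last motif in capitals is TATAAA, the TATA box, which positions the start of transcription. Each motif was searched on either strand, no matches overlap in these windows, and each sequence runs 5′ to 3′ on the strand of its gene.

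Glul, chr1:153899679-153899928, plus strand: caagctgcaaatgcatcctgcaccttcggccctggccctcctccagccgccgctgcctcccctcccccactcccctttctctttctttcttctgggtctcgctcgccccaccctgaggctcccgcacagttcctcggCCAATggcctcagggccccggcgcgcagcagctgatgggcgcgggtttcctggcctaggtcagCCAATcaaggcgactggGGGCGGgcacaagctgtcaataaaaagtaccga
Kcnj10, chr1:172340960-172341209, plus strand: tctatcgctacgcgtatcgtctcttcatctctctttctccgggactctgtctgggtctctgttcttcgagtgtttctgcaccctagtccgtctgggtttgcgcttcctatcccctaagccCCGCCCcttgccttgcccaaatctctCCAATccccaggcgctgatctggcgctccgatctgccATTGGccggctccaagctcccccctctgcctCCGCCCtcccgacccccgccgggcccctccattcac
Slc1a3, chr15:8710808-8711057, minus strand: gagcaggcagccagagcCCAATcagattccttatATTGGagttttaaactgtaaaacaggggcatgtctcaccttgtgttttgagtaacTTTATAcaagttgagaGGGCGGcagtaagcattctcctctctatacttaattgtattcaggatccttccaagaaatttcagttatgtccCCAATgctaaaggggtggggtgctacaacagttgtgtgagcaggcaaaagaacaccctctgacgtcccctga
Rlbp1, chr7:79387028-79387277, minus strand: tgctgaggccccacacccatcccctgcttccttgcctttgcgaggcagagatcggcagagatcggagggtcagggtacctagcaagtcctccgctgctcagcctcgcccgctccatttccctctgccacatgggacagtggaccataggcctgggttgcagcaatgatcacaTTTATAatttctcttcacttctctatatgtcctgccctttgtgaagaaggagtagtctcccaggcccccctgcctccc
Sox2, chr3:34649745-34649994, plus strand: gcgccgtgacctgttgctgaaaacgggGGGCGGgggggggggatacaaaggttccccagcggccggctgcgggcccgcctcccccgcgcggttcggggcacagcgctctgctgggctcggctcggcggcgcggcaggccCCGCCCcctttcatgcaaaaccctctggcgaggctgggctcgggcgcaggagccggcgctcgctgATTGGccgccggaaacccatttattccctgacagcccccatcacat

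Glul had 1 GC box and 2 CCAAT boxes in this window, Kcnj10 had 2 of each, and Sox2 had 2 GC boxes and 1 CCAAT box. Slc1a3 held a GC box and 3 CCAAT boxes beside the letters of the TATA box, and Rlbp1 held only those letters of these motifs. In both genes the letters TATAAA lie on the strand opposite to the gene, and whether they act as a TATA box was not tested. Among the 32851 promoter windows of the table, 32.7% held the GC box, 33.8% the CCAAT box and 12.4% the TATA box. The letters GTGGGAA, to which the Notch effector RBPJ can bind, were in none of the 5 windows and in 5.42% of all windows. The letters ACAAAG, which many SOX factors recognise, were found once in Rlbp1 and once in Sox2 and in 16.5% of all windows.

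CpG content, as the observed over the expected number of CpG, was 0.83 in Sox2 and Kcnj10, 0.60 in Glul, 0.30 in Rlbp1 and 0.16 in Slc1a3. Of 8168 genes with a value of at least 0.6 in this table, 67.6% were marked in all 6 lists and 10.7% in none. Of 8354 genes below it, 15.6% were marked in all 6 lists and 69.5% in none. Sox2, of the class in which most promoters were marked, had no peak in any list. Slc1a3, with 2 CpG in 250 bases, had a promoter peak in 3 lists, but in all 6 lists peaks covered 0 of these 250 bases. Of the Kcnj10 window, peaks covered 46 bases in control replicate 3 and 0 in the other lists.

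Glul encodes glutamine synthetase, which turns glutamate taken up by the glia into glutamine. It lies at chr1:153899944-153909723 on the plus strand. Its promoter summit held 36, 35 and 66 fragments in the control lists, in the order of their numbers, against 39, 39 and 31 fragments in the 4xIOP lists. Divided by the genome mean background of the list, the level was 16.4, 10.4 and 26.7 in control and 19.4, 18.4 and 12.1 in 4xIOP. Control replicate 3 was the highest and control replicate 2 the lowest of the 6, and the groups overlapped. Group means were 17.8 ± 8.28 for control and 16.6 ± 3.96 for 4xIOP (SD, n = 3).

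The called peaks at Glul lay on both sides of the start and not over it. Every list had 2 peaks, and the stretch between them that no peak covered was from 211 bp (control replicate 3) to 523 bp (4xIOP replicate 1) long. Merged over the lists they form the regions chr1:153899250-153899774 and chr1:153899966-153900834, with centres at -0.432 and 0.456 kb from the TSS. Of the 250 upstream bases printed above, peaks covered from 11 (control replicate 2) to 96 (4xIOP replicate 1). At least 2 promoter peaks in every list were found at 14.5% of the 8657 genes that were marked in all 6 lists. Both regions also lie within 2.5 kb of a TSS of Teddm2, so that the mark cannot be assigned to Glul alone.

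Clu encodes clusterin, a secreted chaperone that glia release under stress, and lies at chr14:65968483-65981547 on the plus strand. Its promoter summit held 34, 44 and 43 fragments in control and 24, 22 and 28 fragments in 4xIOP. The level over the genome mean was 15.5, 13.0 and 17.4 in control and 11.9, 10.4 and 10.9 in 4xIOP. On this scale every 4xIOP list was below every control list, with means of 15.3 ± 2.21 and 11.1 ± 0.797 (SD, n = 3). The groups were separated in the same direction at 1.00% of the 8657 genes marked in all lists. This separation was counted after the values had been seen, and by rank within a list the groups overlapped. The region called in all lists was chr14:65968498-65969095, just after the start, and control replicate 1 and 4xIOP replicates 1 and 2 had a further peak before the start.

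**Figure D1:**
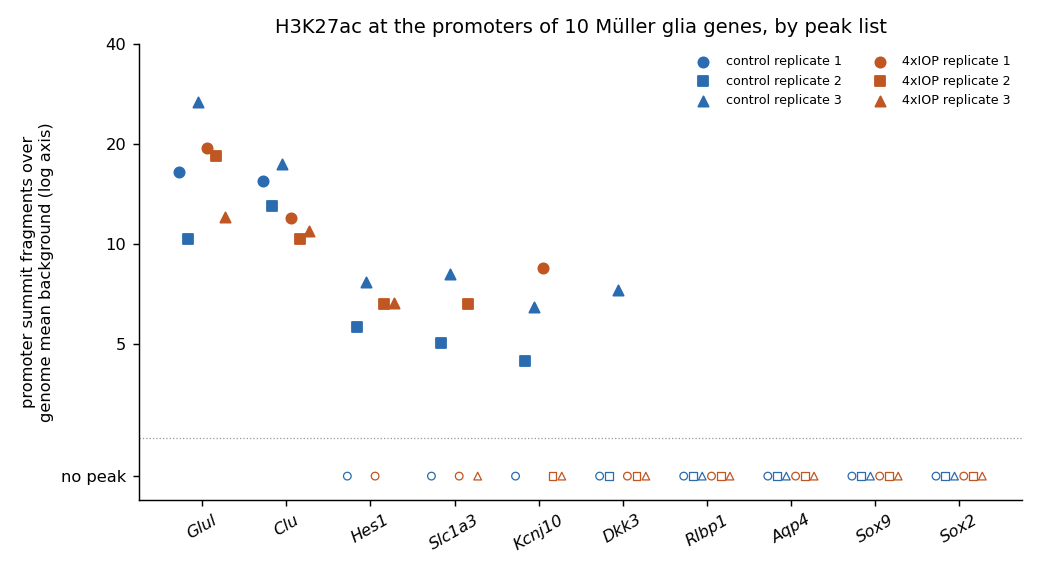
Promoter level of each of the 10 genes in each peak list, as summit fragments over the genome mean background on a log axis, with colour for the group, shape for the replicate and open symbols below the dotted line for lists without a promoter peak. Glul and Clu were marked in all 6 lists at levels from 10.4 to 26.7, the other marked genes had levels from 4.44 to 8.45, and Rlbp1, Aqp4, Sox9 and Sox2 had no promoter peak.

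The transporter and channel genes had weak peaks. Slc1a3 encodes GLAST, the glutamate transporter through which Müller glia clear the transmitter, and lies at chr15:8634124-8710764 on the minus strand. Its promoter held 17 fragments in control replicate 2, 20 in control replicate 3 and 14 in 4xIOP replicate 2, which is 5.03, 8.10 and 6.60 times the genome mean. In the lists without such a peak the nearest one was about 141 kb from the TSS. Kcnj10 encodes the potassium channel Kir4.1 and lies at chr1:172341210-172374085 on the plus strand. Its promoter held 15 fragments in control replicate 2, 16 in control replicate 3 and 17 in 4xIOP replicate 1, which is 4.44, 6.48 and 8.45 times the genome mean. The lists that marked Kcnj10 and those that marked Slc1a3 were thus the same in control and different in 4xIOP. Aqp4, the water channel of glial endfeet, had no peak nearer than 79.9 kb (control replicate 3), and in the other lists the nearest was from 252 to 339 kb away.

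Hes1, a transcriptional repressor and target of Notch signalling, was marked by weak peaks before its start. They held 19 fragments in control replicates 2 and 3 each, 14 in 4xIOP replicate 2 and 17 in 4xIOP replicate 3, which is from 5.62 to 7.70 times the genome mean. The merged region, chr16:30063350-30064117, was centred at -1.61 kb from the TSS. The transcription factors Sox2 and Sox9, which retinal progenitors and Müller glia share, stood in stretches without peaks in all 6 lists. The nearest peak to the Sox2 TSS was from 568.4 to 568.6 kb away in every list, and the nearest to Sox9 from 275 to 391 kb.

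Rlbp1 encodes CRALBP, the retinaldehyde carrier of the visual cycle, and lies at chr7:79374870-79387048 on the minus strand. Its promoter had no peak. A region at -4.94 kb from its start was called in control replicate 3 and 4xIOP replicates 2 and 3, with 23, 15 and 14 fragments, and this region lies at the promoter of the neighbouring gene Fanci. Dkk3, which encodes a secreted protein of the Dickkopf family, was marked in control replicate 3 alone, with 18 fragments or 7.29 times the genome mean. In the other lists its nearest peak was from 26.6 to 135 kb away.

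Of these 10 promoters the control lists marked 2, 5 and 6 (20%, 50% and 60%), and the 4xIOP lists marked 3, 4 and 3 (30%, 40% and 30%). The means were 4.33 ± 2.08 and 3.33 ± 0.577 (SD, n = 3), and the groups overlapped. Over all protein-coding genes the share marked was 48.6%, 46.2% and 56.9% in control and 47.4%, 45.6% and 44.6% in 4xIOP. The share of the 10 genes lay below that of all genes in 4 lists and above it in control replicates 2 and 3. Among the lists with a fragment length above 200 bp it was 2 genes in control against 3 and 4 in 4xIOP, and among those below it 5 and 6 against 3. Each of these classes has a group of 1 list. The longer class also had the lower background, at most 99.6 fragments per 10000 bp against at least 132, so that length and background cannot be told apart. Without control replicate 3, the list with the most peaks, the difference shrank from -1 to -0.17 genes. It was -2.17 without control replicate 1, and 0.33, the other way, with the same number of peaks (16195) taken from each list. Control replicate 3 also marked 4 of 5 bipolar cell genes, of which the other lists marked 0 or 1. In the summed level of the bipolar genes an unmarked promoter adds nothing, so that 0 means no called peak. This sum was 34.0 in control replicate 3, 8.21 and 0 in control replicates 1 and 2 and 0 in all 4xIOP lists. Vsx1 was marked in 0 lists. The part of the bipolar genes in the count was not tested.

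No member was marked in every list of one group and in none of the other. Across all genes 0.361% were marked in this way in control alone and 0 genes in 4xIOP alone. To compare levels, the fragments of the 8657 genes marked in all lists were ranked within each list, turned into normal scores and tested with limma. By rank Glul stood at percentiles 52.6, 43.9 and 42.1 of these genes in control and at 65.5, 70.6 and 57.5 in 4xIOP. Every 4xIOP list was above every control list on this scale. The same pattern was seen in 4.42% of the genes tested, and the opposite one in 4.33%. The difference of 0.47 ± 0.28 (SE) in normal score did not pass the test (limma with Benjamini-Hochberg adjustment over all genes, adjusted p = 1, unadjusted p = 0.113). With the deposited fold ranked in place of fragments the difference was 0.19 and the Glul groups overlapped.

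By rank Clu stood at percentiles 46.9, 65.3 and 8.42 in control and at 16.6, 16.6 and 45.6 in 4xIOP, and the groups overlapped. Control replicate 3 was the lowest of all lists by rank and the highest by level over the genome mean. The difference in normal score was -0.33 ± 0.43 (SE), with an adjusted p of 1 in limma. Without control replicate 3 it was -0.84, and without control replicate 2 it was 0.032. On the scale of fragments over the genome mean, on which the Clu groups did not overlap, 0.0347% of the genes tested were higher in every 4xIOP list. The separation of the groups on this scale was counted after the values had been seen. The median log2 difference of all 8657 genes on it was -0.27, with 94.1% of genes lower in 4xIOP. The log2 difference was -0.46 for Clu and -0.026 for Glul, which is -0.19 and 0.25 relative to that median.

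**Figure D2:**
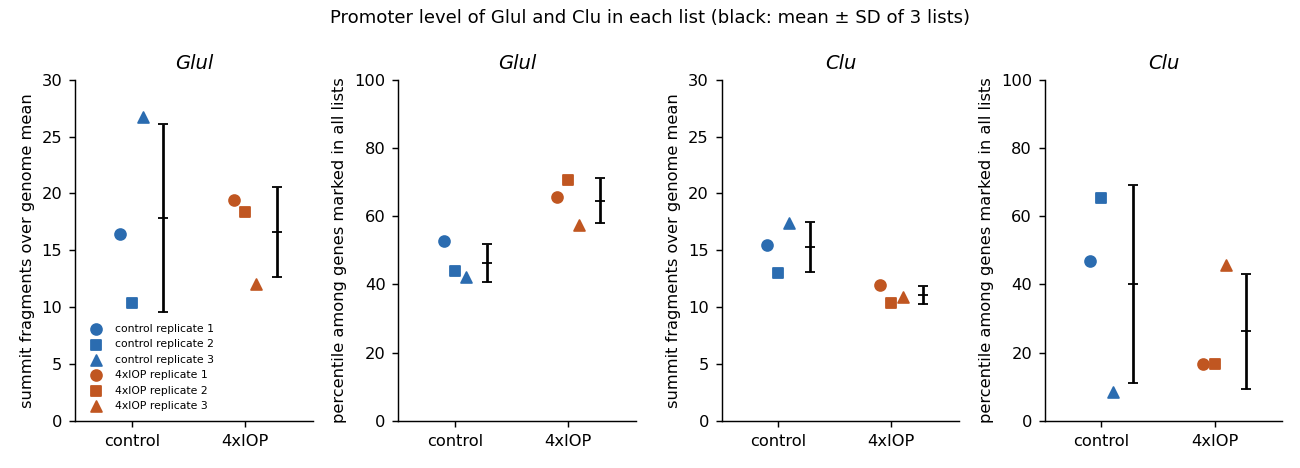
Promoter level of Glul (left panels) and Clu (right panels) in the 3 control and 3 4xIOP lists, as summit fragments over the genome mean and as the percentile among genes marked in all 6 lists, with the mean and SD of each group in black. Glul was separated between the groups by percentile (42.1 to 52.6 against 57.5 to 70.6) and Clu by fragments over the genome mean (13.0 to 17.4 against 10.4 to 11.9), and neither on the other scale.

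Among all 8657 genes tested, 0 passed limma in either direction at an adjusted p of 0.05, where 162 genes were higher and 132 lower in 4xIOP at an unadjusted p under 0.05. The SD of the differences over all genes was 0.33. The median over these 2 members was 0.07, against -0.000169 over all genes tested.

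**Figure D3:**
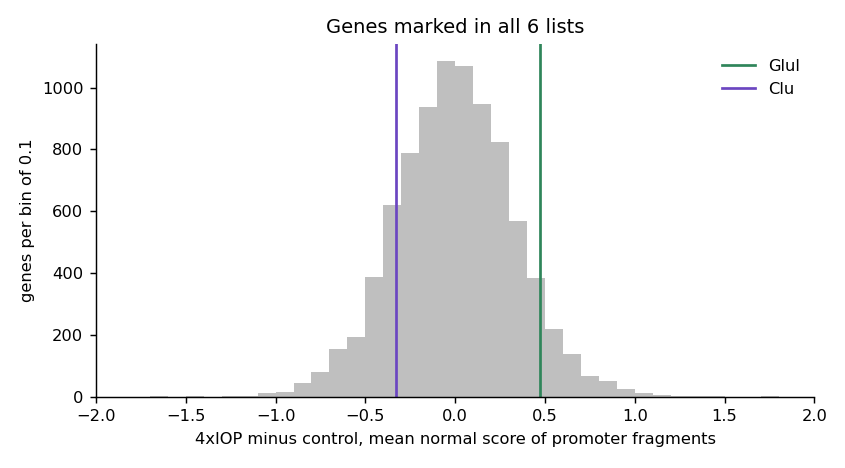
Number of genes by the difference in mean normal score of promoter fragments, 4xIOP minus control, for the 8657 genes marked in all 6 lists, in bins of 0.1, with lines at Glul and Clu. Glul (0.47) lies in the right shoulder of the distribution and Clu (-0.33) in the left, both inside the body of the other genes.

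The loci, each a gene body with 20 kb on either side, held 23 consensus regions, which are the merged peaks of all lists. Of these, 9 were at the gene's own promoter, 7 were distal to any TSS and 7 lay at the promoter of another gene. The loci of Kcnj10 and Clu held 8 and 7 of them, and those of Aqp4, Sox9 and Sox2 held 0. In all 6 lists 4 regions were called (17.4%), against 26.4% of the 39942 regions of the genome. These were both Glul promoter regions, the Clu promoter region and a region at the promoter of Pigm, the neighbour of Kcnj10.

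Distal regions were found at 4 genes. At Clu the highest was chr14:66000231-66001391, 32.3 kb after the TSS and inside the neighbouring gene Gulo. Its summit held 51, 56 and 68 fragments in the control lists and 40 and 37 in 4xIOP replicates 2 and 3, and it was not called in 4xIOP replicate 1. With a mean of 20.1 times the genome mean over the 5 lists it stood above the Clu promoter itself, which had 13.2 over 6 lists, and its summit held more fragments than the promoter in each of these 5 lists. A further region at the 3′ end of Clu, chr14:65980894-65981599, overlapped an exon and was called in 5 lists with 22 to 37 fragments.

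At Hes1 a region 5.07 kb after the TSS, chr16:30070047-30070767, held 16, 21 and 29 fragments in control and 18 and 18 in 4xIOP replicates 1 and 2. It was called in control replicate 1 and 4xIOP replicate 1, in which the Hes1 promoter was not. At Slc1a3 a region past the 3′ end, chr15:8629496-8629902, was called in control replicates 2 and 3 with 19 and 23 fragments and in 0 lists of 4xIOP. At Kcnj10 the distal region chr1:172326393-172326588, which overlaps the neighbouring gene Kcnj9, was called in control replicate 3 alone, with 36 fragments.

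**Figure D4:**
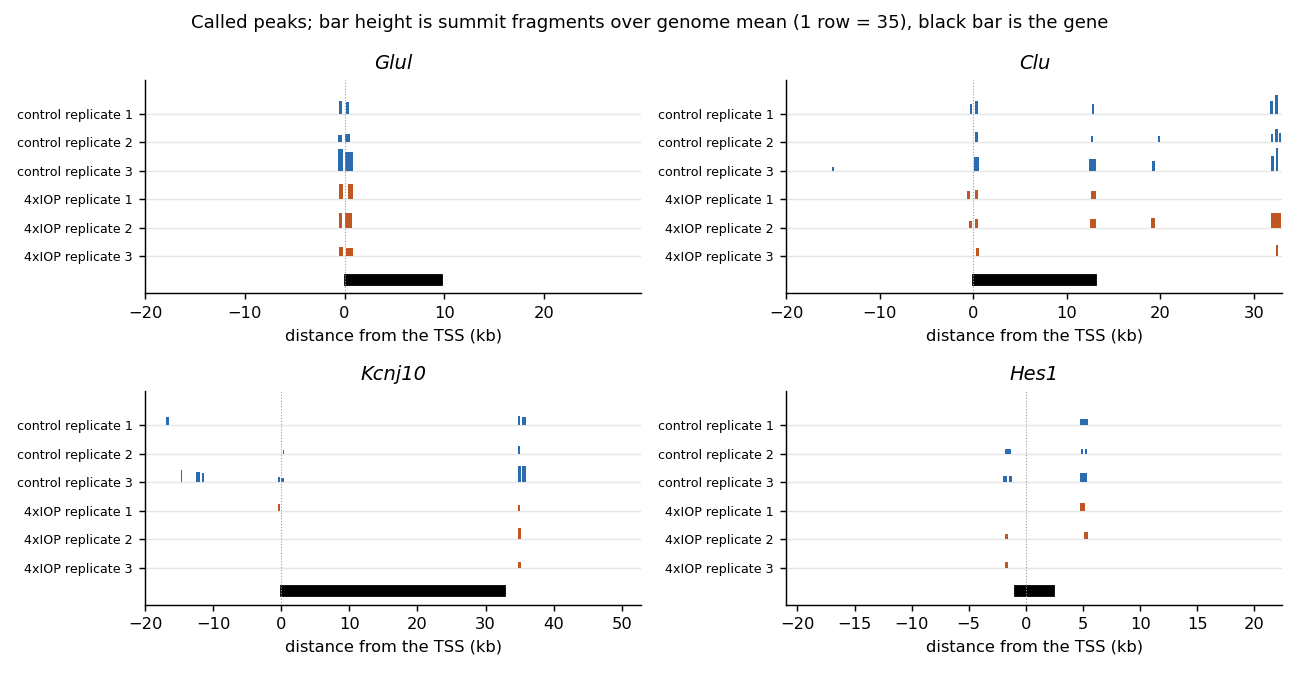
Called peaks at Glul, Clu, Kcnj10 and Hes1 in each list against the distance from the TSS in kb, with bars as wide as the peak, a height that gives the summit fragments over the genome mean and the gene as a black bar. Glul had 2 peaks in every list and none elsewhere in its locus, Clu had peaks up to 32.9 kb after its start, and the peak 34.9 kb after the Kcnj10 start lies at Pigm.

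The fragments of the 10529 regions called in all lists were tested in the same way, and limma called 0 in either direction (187 higher and 156 lower at an unadjusted p under 0.05). The Glul regions differed by 0.45 ± 0.28 (SE) before the start and by 0.53 ± 0.29 after it. The Clu promoter region differed by -0.37 ± 0.41 and the Pigm region by -0.74 ± 0.50. All 4 had an adjusted p of 1. The Clu region moved to -0.046 without control replicate 2 and to -0.80 without control replicate 3, and the Pigm region was at -0.10 when 4xIOP replicate 1 was left out and at -1.29 when 4xIOP replicate 2 was. Peaks covered 3817, 4369 and 9041 bp of the 620 kb of the loci in control and 2972, 5394 and 2455 bp in 4xIOP. The groups overlapped, with a difference of -2135 bp that was -486 bp without control replicate 3. Per Mb of peaks in the whole list, this was from 352 to 490 bp in control and from 292 to 521 bp in 4xIOP.

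A further 25 genes of Müller glia were examined beside these 10. Of them 8 were marked in all 6 lists, 10 in some and 7 in none, and between 9 and 18 were marked in a list. None was marked by every list of 1 group while absent from the other group, and none of the 8 passed limma. The highest were Car2, a carbonic anhydrase, at 40.7 times the genome mean (percentile 99.0, on average, of the genes marked in all lists) and Rax, a homeobox factor of the eye field that photoreceptors also express, at 40.3 times (percentile 98.7). The lowest of those marked in all lists were Dbi, a binding protein of acyl-CoA, at percentile 21.7, and Prdx6, a peroxiredoxin, at percentile 54.7. Glul and Clu stood at 55.4 and 33.2 on the same measure, within the range of these genes.

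For scale, rod genes had a median of 34.6 times the genome mean over their 4 promoters, against 15.2 for Glul and Clu and 16.5 for all genes marked in all lists. All 4 rod genes were marked in all 6 lists, and of 5 genes each, 1 amacrine gene and 0 ganglion cell, bipolar cell and endothelial genes were. The summed level of the rod genes ranged from 102 to 209.8 over the control lists and from 70.5 to 178 over the 4xIOP lists. That of the 10 Müller glia genes, to which an unmarked promoter adds nothing, ranged from 31.9 to 73.7 and from 29.6 to 41.9. For both sums control replicate 3 was the highest list and 4xIOP replicate 3 the lowest.

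**Figure D5:**
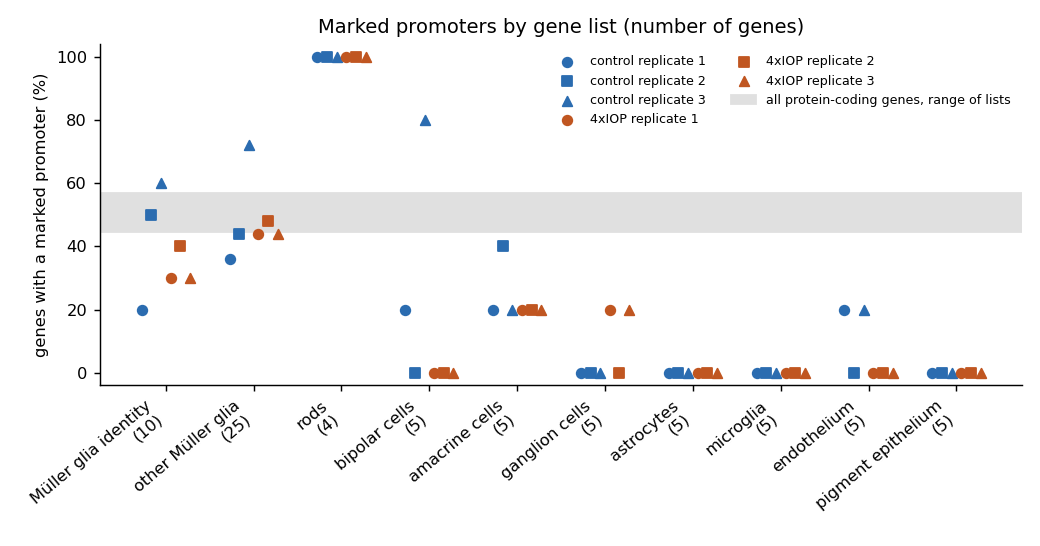
Share of genes with a marked promoter in each peak list, for the 10 Müller glia genes, the further 25 and lists of 4 rod genes and of 5 genes for each of 7 other cell types, with the range over all protein-coding genes as a grey band (44.6% to 56.9%). The 10 genes lie between 20% and 60%, rod genes at 100% in every list, and astrocyte, microglia and pigment epithelium genes at 0.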

How the data were processed

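H3K27ac ChIP-seq peak lists of 6 bulk retina samples were used, grouped by the labels. The submitters' processing notes name mm10, STAR 2.7.8a, MACS2, HOMER, edgeR and bedtools 2.29.2, without their roles. Each deposited peak has a fold enrichment (the authors' ratio of the summit pile-up to a local background), a −log10 p-value and a −log10 q-value (none below 1.31). The deposited integer score was not used.

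Fold is (fragments + 1) / (background + 1) under a Poisson model, and with p it gave whole fragments for 100% of peaks within 0.001 of the deposited −log10 p. The genome mean is the lowest background found in a list. No summit held more than 2 fragments per bp of the shortest peak, so that the highest levels may be capped.

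Autosomes and sex chromosomes were kept, and peaks were overlapped (1 bp) with GENCODE vM21 basic genes on GRCm38. Fragments were ranked within a list, turned into normal scores and tested with limma 3.58.1 in R 4.3.3, with Benjamini-Hochberg adjustment at 0.05. The labels do not say that replicates are separate animals, so p-values measure only the spread between these samples. The scripts were tested on simulated data. Every member was named, with its strongest promoter and distal regions, and of the further 25 genes the 2 highest and 2 lowest. Sequences were to be those of the 3 highest marked members and the lowest, of which the table held Glul and Kcnj10. The other 3 sequences and the motifs were chosen after the values were seen. The members and gene lists were chosen with earlier results of these data known. The alternatives tried are named with their effect below.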

Additional observations from a re-analysis of the deposited data

How the results depend on the processing

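Under 13 alternatives for promoters and 12 for regions, limma called 0 genes and 0 regions in either direction, and the number at an unadjusted p under 0.05 ranged from 6 to 632 genes and from 8 to 1089 regions, where it was 294 and 343 in the comparison as reported. The highest counts came without 4xIOP replicate 3 and the lowest with levels that were not ranked. The smallest adjusted p ranged from 0.386 to 1 for genes.

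Glul kept its direction except with levels not ranked, where it was -0.026 on the log2 scale and the Glul region before the start was -0.0079, and its adjusted p was from 0.747 to 1. Clu kept its direction except without control replicate 2 (0.032), with values from -0.84 to 0.032 when 1 list was left out, and it was not marked in all 6 lists with a −log10 q of at least 5. The number of members separated by rank was 1 higher and 0 lower in 4xIOP. It was 0 higher with the deposited fold ranked. With 1 list left out it was 1 lower only without control replicate 3, where no share of genes so separated was counted. On fragments over the genome mean, chosen after seeing the data, the number was 0 higher and 1 lower.

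With only control replicate 3 and 4xIOP replicate 3, the lists that carry the name of their label, the difference was -3 marked members, -6586 bp of covered length and a median of 1.06 in normal score over the members, with no test and no separation of groups to count. Hes1 was marked in both of these lists, so that this median need not be over Glul and Clu alone. The number of marked members differed by from -2.17 to -0.17 when 1 list was left out, and by 0.33, the other way, with equal numbers of peaks. The covered length differed by from -3098 to -486 bp and the median by from -0.21 to 0.23 when 1 list was left out, and the median was -0.06 with the fold ranked. The cause was not tested. TSS of the comprehensive annotation, added after seeing the data, left the members marked in each list as they were. The difference stayed at -1 with a promoter of 1 kb and with a summit required inside the promoter, although Hes1 was marked in 0 lists with the promoter of 1 kb. With equal numbers of peaks Slc1a3 and Dkk3 were marked in 0 lists and the covered length differed by -753 bp. The covered length differed by -1478 and -2749 bp in loci with 5 and 50 kb on either side. With a −log10 q of at least 5 the differences were -0.33 members and -1487 bp, and the median was 0.51, from Glul alone.

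Same-numbered samples did not deviate together (correlations of -0.047, -0.0016 and -0.035 over 8657 genes), and the labels do not say whether a number marks the eyes of 1 mouse, so that pairing by animal is unknown. With the fragment length as a term limma called 0 genes and 0 regions (176 higher and 146 lower genes at an unadjusted p under 0.05), with 0.38 for Glul and -0.26 for Clu. In the fit with a replicate block limma again called 0 genes and 0 regions, and the number at an unadjusted p under 0.05 was 139 higher and 137 lower genes. The weakest summit of a list held 9 to 12 fragments, and the marked promoters of Slc1a3, Kcnj10, Hes1 and Dkk3 held 14 to 20.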
